A study of Arabidopsis thaliana with 6 samples.

Results

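The core cell cycle genes of *Arabidopsis* were compared between wild-type (WT) seeds and seeds that lack AGL62, a MADS-box factor of the endosperm, at 30 hr after pollination. The genes were chosen by locus identifier and number 45 of the 32678 in the deposited table: 10 D-type, 9 A-type and 9 B-type cyclins, 5 cyclin-dependent kinases (CDKs), 7 KIP-related proteins (*KRP1* to *KRP7*), and *E2FA*, *E2FB*, *E2FC*, *DEL1* and *RBR1* of the retinoblastoma and E2F module. RNA of whole seeds was sequenced in 3 biological replicates of WT and 3 of the genotype labelled *agl62*/-. The mutant seeds came from homozygous *agl62* plants that were emasculated and pollinated by hand. Seed of this genotype is scarce, which limits it as a source of material. A legend in the study's supplement names the genotype *agl62*/+ instead, but the sample labels and the study's methods were followed here. The strain of the WT plants of these libraries is not given in the sources used here.

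Progression through the plant cell cycle depends on CDKs that are activated by cyclins. Complexes of CDKA with D-type cyclins phosphorylate RBR1, which releases E2F factors that switch on genes for DNA replication. A-type cyclins act from S phase onwards, and B-type cyclins act with the plant-specific CDKBs at the entry into mitosis. In the young seed the endosperm divides its nuclei without forming cell walls, a state that AGL62 maintains, while the embryo divides with cytokinesis.

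The table gives 1 mean per genotype, the average over 3 libraries of counts normalized by a size factor, written to 3 significant digits. It holds no value of a single library, so the spread between replicates is not known here and no difference below was tested. The interval beside a log2 ratio is a 95% interval for counting error only, worked out from the relative depth of the libraries, which spanned 0.456 to 1.38 for WT and 1.06 to 1.3 for *agl62*. This interval leaves out the variation between biological replicates. By it alone, 34.2% of the 19898 genes that pass a filter on the mean over both genotypes (at least 10) would lie below their WT level and 35.8% above it. *AGL62* (AT5G60440) had a mean of 410 in WT and of 1.81 in *agl62*, which is 0.441% of the WT level and has the direction the labels give.

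Promoters of cyclin genes carry short elements that tie them to phases of the cycle. The window from 250 bases before to 50 bases after the annotated start of each gene was read from the RefSeq annotation of TAIR10.1 and searched on both strands for AACGG, the core of the mitosis-specific activator element bound by three-repeat MYB factors. At least 1 match was found in 8 of the 9 B-type cyclins (88.9%) and 2 or more in 7 of them, against 24.7% and 4.9% of all 26711 promoters. On the strand of the gene alone, 8 of the 9 held at least 1 match and 1 held 2 or more. The shares of all promoters on that strand were 13.8% and 1.68%. For 6 B-type cyclins 1 match on the strand of the gene is shown, 5′ to 3′ and with the core in capitals, because most B-type cyclins and few D-type cyclins hold it.
AT4G37490, B1 cyclin (chr4:17624305-17624333, minus strand, 13 bases before the start): tatttcttataaAACGGctcatcgtcctc
AT5G06150, B1 cyclin (chr5:1861730-1861758, minus strand, 43 bases before the start): atttaatcatctAACGGcaacagatgaaa
AT3G11520, B1 cyclin (chr3:3627296-3627324, minus strand, 39 bases before the start): agttcatcatccAACGGctagaagtctaa
AT2G17620, B2 cyclin (chr2:7663958-7663986, plus strand, 85 bases before the start): ccctcatgatccAACGGttatattctaaa
AT4G35620, B2 cyclin (chr4:16901460-16901488, plus strand, 124 bases before the start): ccttcatgatccAACGGtcatcttaatca
AT1G20610, B2 cyclin (chr1:7137878-7137906, minus strand, 66 bases before the start): tggcgttgatccAACGGctgagatgaact
The 3 B2 cyclins among them share the letters gatcc directly before the core.

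Outside the B-type cyclins the core was found in 4 of 9 A-type cyclins, 5 of 7 KRPs, 2 of 5 genes of the E2F module, 1 of 5 CDKs and 1 of 10 D-type cyclins. *KRP1* held 7 matches, the most of any member. The E2F sites TTCCCGCC, TTTGGCGC, TTTCGCGC, TTTGCCGC and TTTCCCGC were searched in the same windows. They were found in 3 of the 45 members (6.67%), against 2.06% of all promoters and 9 of 15 genes of DNA replication (60%). These 3 are shown with the site in capitals as it reads on the strand of the gene, and the last is a match on the opposite strand.
AT3G12280, RBR1 (chr3:3919417-3919446, minus strand, 76 bases before the start): caaatatgtaaTTTCCCGCgtgacctaaac
AT1G77390, A1 cyclin (chr1:29084408-29084437, minus strand, 141 bases before the start): tcagggaaaagTTTCGCGCtaaactataat
AT3G50070, D3 cyclin (chr3:18566920-18566949, minus strand, 104 bases before the start): aattttctcgcGCGCCAAAcatccgaatat
None of the E2F sites overlapped an AACGG core. A match describes these letters only.

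None of the 45 genes differed by 1.5-fold or more between the genotypes, a size passed by 11.5% of all genes past the filter, 5.19% with a lower and 6.33% with a higher mean in *agl62*. None differed by 2-fold either, which 5.44% of all genes did. All 45 passed the filter, 43 had a mean of at least 100, and 26 had a WT mean of at least 1000. Restricting all genes to the 16604 that reach a mean of 100 left 6.08% past 1.5-fold. The log2 ratios of *agl62* over WT, computed with a pseudocount of 1, ran from -0.45 for the D2 cyclin AT2G22490 to 0.21 for *KRP4*. In 23 of the 45 genes the *agl62* mean was within 10% of the WT mean. This share was not counted over all genes, so it shows nothing particular to the members. All 45 lay between the 5th and the 95th percentile of all genes, -0.60 and 0.68. Between the 25th and the 75th percentile, -0.15 and 0.17, which hold the central 50% of all genes, were 24 members.

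Within this range most members lay below their WT level. In *agl62* 40 of the 45 had a lower mean, against 47.9% of all genes past the filter and 48.9% of those with a mean of at least 100. The median log2 ratio was -0.12 for the members and 0.01 for all genes. Below the 25th percentile of all genes, -0.15, were 20 members, and 1 member was above the 75th, 0.17. The interval for counting error lay wholly below 0 for 27 members and wholly above 0 for 2, the A-type CDK and *KRP4*. Of all genes past the filter 34.2% lay wholly below and 35.8% wholly above by this interval, which leaves out variation between replicates.

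The sign of the smallest differences depends on the scaling. Equal totals in both columns add 0.05 to the log2 ratio of every gene, members and others alike. On that scale 32 of the 45 members had a lower mean (71.1%), against 39.9% of all genes. The 8 members that changed from lower to higher or level were those nearest below 0: the B-type cyclins AT4G37490, AT3G11520 and AT1G20610, the D6 cyclin, both B2 CDKs, *KRP5* and *E2FB*.

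**Figure D1:**
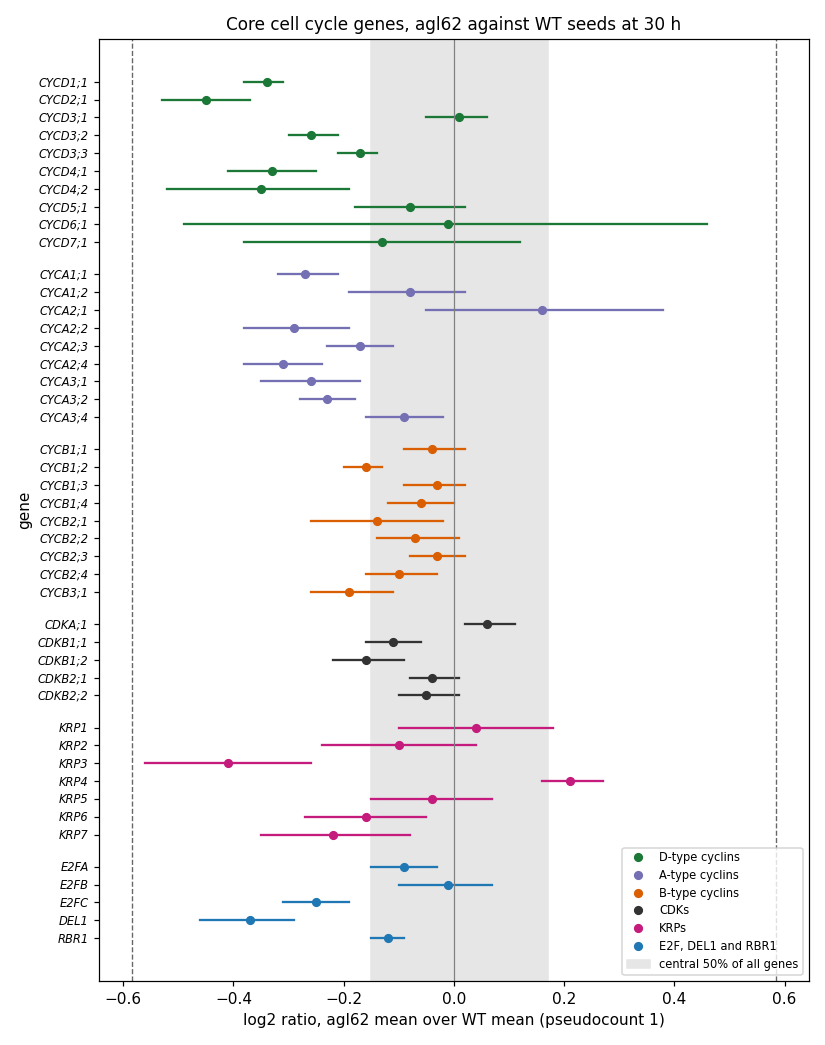
Log2 ratio of *agl62* to WT (x axis) for each of the 45 genes (y axis), coloured by class, where lines are 95% intervals for counting error only, the grey band spans the central 50% of all genes (-0.15 to 0.17) and dashed lines mark 1.5-fold. No gene reaches a dashed line, and most genes of each class lie left of 0.

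**Figure D2:**
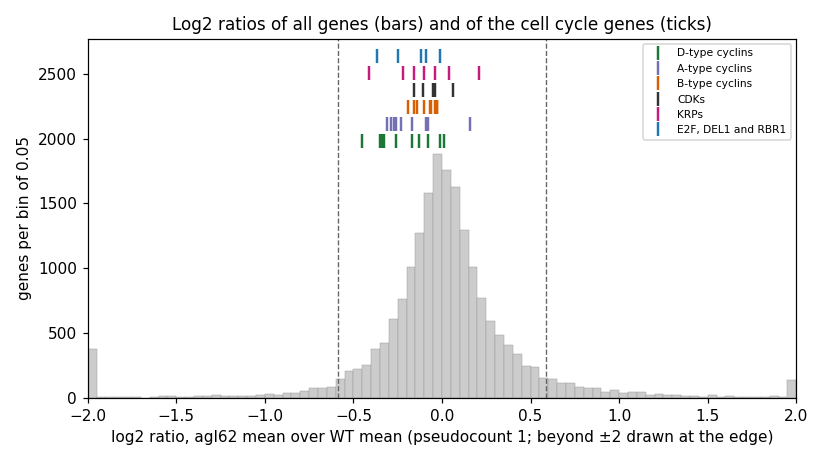
Number of genes (y axis) by log2 ratio of *agl62* to WT (x axis) for the 19898 genes past the filter, as grey bars, with the 45 members as ticks in 1 row per class. The height of the rows has no meaning, dashed lines mark 1.5-fold, and the members run from -0.45 to 0.21.

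The D-type cyclins, which couple hormone and sugar signals to the start of the cycle, were lower in *agl62* for 9 of 10 genes, at a median log2 ratio of -0.21. Positions of the members are those of TAIR10.1. *CYCD2;1* (AT2G22490, chr2:9553797-9556167, minus strand) had the lowest ratio of all members, with means of 1020 in WT and 748 in *agl62* (log2 ratio -0.45, interval -0.53 to -0.37). *CYCD1;1* (AT1G70210, chr1:26439556-26443007, plus strand) had means of 6680 in WT and 5260 in *agl62* (-0.34, interval -0.38 to -0.31). Both D4 cyclins were lower by a like amount. *CYCD4;1* (AT5G65420, chr5:26141470-26144020, minus strand) had means of 987 and 787 (-0.33), and *CYCD4;2* (AT5G10440, chr5:3280487-3282553, minus strand) had 239 and 187 (-0.35). These 4 genes, *KRP3* and *DEL1* were the 6 members lower by at least 1.25-fold, a size chosen after the values were seen. It was passed in that direction by 12.3% of all genes and by 9.49% of those with a mean of at least 100. No member was higher by 1.25-fold, which 14.4% of all genes were.

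The D3 cyclins, which promote division in response to cytokinin, had unlike values. *CYCD3;2* (AT5G67260, chr5:26836139-26839597, plus strand) had means of 2590 in WT and 2170 in *agl62* (-0.26), and *CYCD3;3* (AT3G50070, chr3:18565134-18566834, minus strand) had 4310 and 3820 (-0.17). In contrast, *CYCD3;1* (AT4G34160, chr4:16357421-16359565, plus strand) had 1790 and 1800 (0.01, interval -0.05 to 0.06), values 1 rounding step of the table apart. It shares 40 exonic bases, 2.13% of its exons, with AT4G34150 on the same strand, which had means of 13300 and 20700, and the part of these bases in the value was not tested.

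The remaining D-type cyclins had intervals that span 0. *CYCD5;1* (AT4G37630, chr4:17679168-17681264, plus strand) had means of 620 in WT and 586 in *agl62* (-0.08). *CYCD7;1* (AT5G02110, chr5:416917-418666, plus strand), known from the stomatal lineage, had 91.8 and 83.9 (-0.13, interval -0.38 to 0.12). *CYCD6;1* (AT4G03270, chr4:1431844-1433861, minus strand), a target of SHORT-ROOT in the root, had the lowest level of all members per kb of exon, with means of 23.5 in WT and 23.3 in *agl62*. Its interval of -0.49 to 0.46 includes differences as large as that of the D2 cyclin, so none of that size was detectable at this depth. Its exons share 393 bases, 24.4% of their length, with AT4G03260 on the other strand, which had means of 4990 and 4850, and the sources used here do not say whether reads were counted by strand.

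Among the A-type cyclins 8 of 9 had a lower mean in *agl62*, with a median log2 ratio of -0.23. The A2 cyclins, with roles in the switch from division to endoreduplication, held both ends of the class. *CYCA2;4* (AT1G80370, chr1:30213705-30217102, plus strand) had means of 1340 in WT and 1080 in *agl62* (-0.31, interval -0.38 to -0.24). *CYCA2;2* (AT5G11300, chr5:3601513-3605350, minus strand) had 654 and 536 (-0.29), and *CYCA2;3* (AT1G15570, chr1:5361865-5365559, plus strand) had 1900 and 1690 (-0.17). The other A2 cyclin, *CYCA2;1* (AT5G25380, chr5:8814517-8817887, plus strand), had the lowest level of the class per kb and means of 115 and 129 (0.16), with an interval of -0.05 to 0.38 that spans 0.

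The A3 cyclins, which act around the G1/S transition and in S phase, all had lower means. *CYCA3;1* (AT5G43080, chr5:17292952-17295024, plus strand) had 727 in WT and 606 in *agl62* (-0.26), *CYCA3;2* (AT1G47210, chr1:17300691-17302914, plus strand) had 2840 and 2420 (-0.23), and *CYCA3;4* (AT1G47230, chr1:17306574-17308848, plus strand) had 1310 and 1230 (-0.09). The A1 cyclins differed from each other. *CYCA1;1* (AT1G44110, chr1:16774765-16777352, minus strand) had 2080 and 1730 (-0.27), while *CYCA1;2* (AT1G77390, chr1:29081654-29084285, minus strand), also known as *TAM* and needed for meiotic divisions, had 513 and 484 (-0.08) with an interval that spans 0.

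The B-type cyclins were the cyclin class with ratios nearest to 0. All 9 had a lower mean in *agl62*, but the log2 ratios lay between -0.19 and -0.03 with a median of -0.07, and with equal totals 3 of the 9 were higher. *CYCB1;1* (AT4G37490, chr4:17621886-17624308, minus strand), the common marker of cells in G2 and mitosis, had means of 1920 in WT and 1870 in *agl62* (-0.04, interval -0.09 to 0.02). *CYCB1;3* (AT3G11520, chr3:3625286-3627273, minus strand) had 2140 and 2090 (-0.03), and *CYCB1;4* (AT2G26760, chr2:11401118-11403433, plus strand) had 1750 and 1680 (-0.06). *CYCB1;2* (AT5G06150, chr5:1859279-1861703, minus strand), with the highest level of the class per kb, had 5020 and 4480 (-0.16, interval -0.20 to -0.13). The first 3 of these B1 cyclins were within 10% of their WT mean.

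The B2 cyclins were all within 10% of their WT mean as well. *CYCB2;1* (AT2G17620, chr2:7664055-7666522, plus strand) had 434 in WT and 394 in *agl62* (-0.14), and *CYCB2;2* (AT4G35620, chr4:16901596-16904001, plus strand) had 939 and 897 (-0.07). *CYCB2;3* (AT1G20610, chr1:7134659-7137828, minus strand) had 2490 and 2440 (-0.03), and *CYCB2;4* (AT1G76310, chr1:28627694-28630789, minus strand) had 1400 and 1310 (-0.10). The lowest ratio of the class was that of *CYCB3;1* (AT1G16330, chr1:5582387-5587461, minus strand), with 1090 and 956 (-0.19). In AT1G20610, 7.19% of the stretches of 100 exonic bases have an exact copy elsewhere in the genome, and in AT5G06150 0.0699% do. Only uniquely mapping reads were kept, and whether reads of these stretches were lost was not tested. The share was 0% in the other 43 members.

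The kinases had ratios near 0, with a median of -0.05. *CDKA;1* (AT3G48750, chr3:18071454-18074641, plus strand), the single A-type CDK of *Arabidopsis*, had means of 3120 in WT and 3260 in *agl62* (0.06, interval 0.02 to 0.11). The CDKBs, which act from late S phase to mitosis, had lower means. *CDKB1;1* (AT3G54180, chr3:20059671-20061488, plus strand) had 2520 and 2330 (-0.11), and *CDKB1;2* (AT2G38620, chr2:16152473-16154086, plus strand) had 1350 and 1210 (-0.16). *CDKB2;1* (AT1G76540, chr1:28720328-28722550, minus strand) had 3180 and 3100 (-0.04), and *CDKB2;2* (AT1G20930, chr1:7292389-7294746, minus strand) had 2220 and 2150 (-0.05), and the direction of these B2 CDKs changed with equal totals. The second B1 kinase shares 281 exonic bases (18.3%) with AT2G38630 on the other strand, which had means of 641 and 524. The 13 B-type cyclins and B-type CDKs had a median log2 ratio of -0.07.

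The KRPs, which bind and inhibit CDK-cyclin complexes, covered the widest range of ratios of the 6 classes. *KRP4* (AT2G32710, chr2:13873362-13876737, plus strand) had the highest ratio of all members, with means of 1700 in WT and 1970 in *agl62* (0.21, interval 0.16 to 0.27). It shares 926 exonic bases (38.7%) with AT2G32720 on the other strand, whose means were 7080 and 6100. *KRP3* (AT5G48820, chr5:19792270-19794480, minus strand) was at the other end with 288 and 217 (-0.41, interval -0.56 to -0.26). *KRP7* (AT1G49620, chr1:18365336-18366744, minus strand) had 344 and 296 (-0.22), and *KRP6* (AT3G19150, chr3:6616330-6617951, minus strand) had 508 and 454 (-0.16). The remaining KRPs had intervals that span 0: *KRP1* (AT2G23430, chr2:9976590-9978090, minus strand) with 284 and 292, *KRP2* (AT3G50630, chr3:18800306-18801595, plus strand) with 305 and 285, and *KRP5* (AT3G24810, chr3:9060836-9062003, plus strand) with 486 and 472. The class had a median log2 ratio of -0.10, while the ratio of its summed means was 0.03, a sum in which *KRP4* weighs most.

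In the retinoblastoma and E2F module all 5 genes had a lower mean in *agl62*, though *E2FB* did not with equal totals. *RBR1* (AT3G12280, chr3:3913349-3919359, minus strand), the single retinoblastoma-related gene of *Arabidopsis*, had means of 7870 in WT and 7230 in *agl62* (-0.12, interval -0.15 to -0.09). The activators were close to WT. *E2FA* (AT2G36010, chr2:15119516-15123184, plus strand) had means of 1530 and 1440 (-0.09), and *E2FB* (AT5G22220, chr5:7360535-7364505, plus strand) had 776 and 768 (-0.01). The repressors had the lower ratios. *E2FC* (AT1G47870, chr1:17634697-17637809, plus strand) had 1890 and 1590 (-0.25), and *DEL1* (AT3G48160, chr3:17783331-17786160, plus strand), an atypical E2F that restrains endoreduplication, had 868 and 670 (-0.37, interval -0.46 to -0.29). *DEL1* shares 307 exonic bases (16.2%) with AT3G48170 on the other strand, which had means of 4950 and 5250. In all, exons of 14 members overlap those of another gene.

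Levels of different genes were compared as mean normalized count per kb of annotated exon. In WT the D3 cyclin AT3G50070 led at 2995 per kb, before the B1 cyclin AT5G06150 at 2749 and the D1 cyclin at 2666. They were followed by the B2 kinase AT1G76540 at 2326, the A-type CDK at 2081 and *RBR1* at 2044. Without replicate values, it is not known which neighbours in this order differ beyond their spread. In *agl62* the same 10 genes held the first 10 places, 33 of the 45 members moved by at most 1 place, and none moved by more than 4. *KRP4* made up 27.6% of the KRP total per kb in WT and 32.6% in *agl62*, and *KRP3* 9.35% and 7.18%. The D1 cyclin made up 27.1% and 25.1% of the D-type total.

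**Figure D3:**
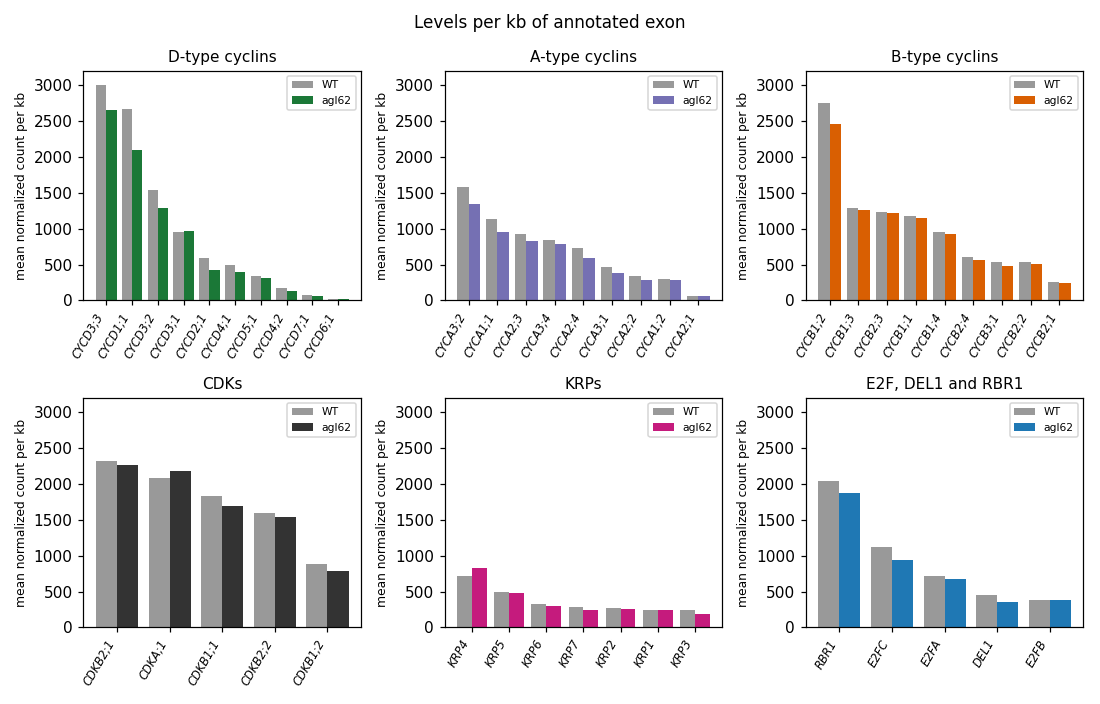
Mean normalized count per kb of annotated exon (y axis, from 0) for each gene of the 6 classes (x axis), with grey bars for WT and coloured bars for *agl62*. Bars are the authors' means of 3 libraries and carry no error bar, and the tallest WT bars are those of a D3 cyclin (2995), a B1 cyclin (2749) and the D1 cyclin (2666).

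Other genes of the cycle were described from lists set beside the members. All 15 genes of DNA replication had a lower mean in *agl62*, against 47.9% of all genes, with a median log2 ratio of -0.19. They ranged from -0.38 for the origin licensing factor *CDC6A* (724 and 558) to -0.12 for the ribonucleotide reductase subunit *TSO2* (7070 and 6500). All 9 genes of mitosis and cytokinesis also had lower means, with a median of -0.04, from -0.15 for the centromeric histone *CENH3* (1140 and 1030) to -0.01 for the kinesin *HINKEL* (5110 and 5090). Equal totals, which add 0.05 to each ratio, would put *HINKEL* and the other mitotic genes nearest to 0 above WT. The replication genes would stay lower. The medians of the D-type and A-type cyclins lay beside that of the replication genes, and those of the B-type cyclins and CDKs beside that of the mitotic genes. Whether these medians differ beyond replicate error was not tested, and none of these 24 genes passed 1.5-fold.

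The SIM and SMR genes are a plant family of CDK inhibitors. Only *SIM* and *SMR1* to *SMR8* were listed here, and 7 of these 9 genes passed the filter. Of the 7, 5 had a higher and 2 a lower mean in *agl62*, against 51% of all genes with a higher mean. The median log2 ratio was 0.25. *SMR8* had the highest ratio (29.6 in WT and 43.6 in *agl62*, 0.54) and *SMR6* the lowest (440 and 356, -0.30). *SMR5* was listed at 0 in WT and 1.18 in *agl62*. Among 10 CDK modifiers and partners 7 had lower means, from the CDK-activating kinase *CDKD;1* (428 and 296, -0.53) to the F-box gene *SKP2A* (922 and 1270, 0.46). The 5 activators of the anaphase-promoting complex, which targets mitotic cyclins for destruction, had a median of -0.01, from *CCS52A1* (1050 and 864, -0.28) to *CCS52A2* (1070 and 1100, 0.04).

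The factors that act with the E2Fs and on the AACGG core were mostly near WT. The 4 E2F partners and other DEL genes had a median of -0.08, from *DPA* (1370 and 1190, -0.20) to *DEL3* (638 and 679, 0.09). The 5 three-repeat MYB genes had a median of 0.01, and *MYB3R1* had the lowest ratio (2070 and 1780, -0.22). *MYB3R2* was the only gene of these cell cycle lists past 1.5-fold, with means of 12.4 and 50.9 (1.95, interval 1.42 to 2.49).

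**Figure D4:**
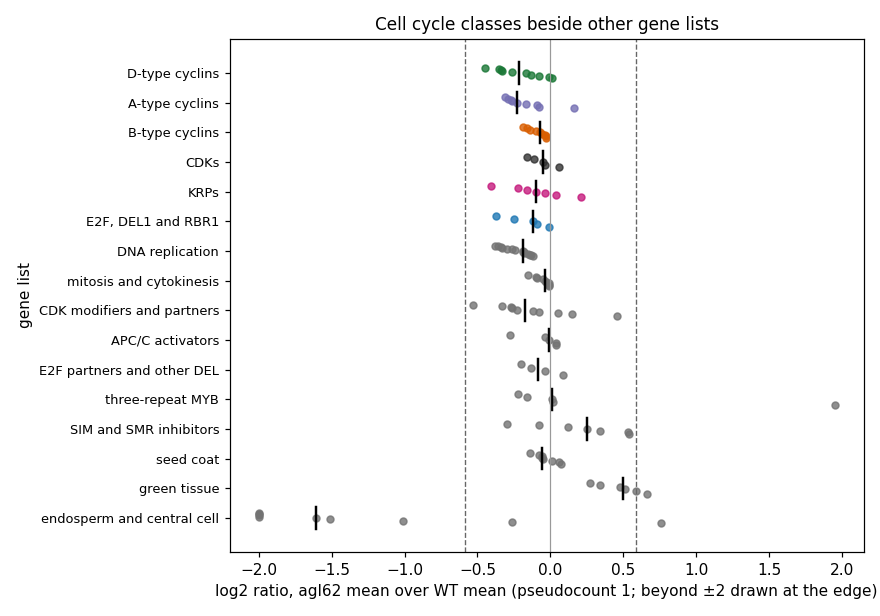
Log2 ratio of *agl62* to WT (x axis) for the genes past the filter in each class and in other gene lists (y axis), where points are genes, black bars are medians and dashed lines mark 1.5-fold. The embryo and pollen markers are not drawn. The cyclin and CDK classes sit between -0.45 and 0.16, while the median of the endosperm markers is -1.61 and the green tissue markers are all above 0.

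Markers of some seed tissues differed by more than any cell cycle class. Of 12 endosperm and central cell markers 9 passed the filter and 8 of these had a lower mean in *agl62*, with a median log2 ratio of -1.61. They ranged from *AGL62* itself (-7.19) to *FIS2* (83.9 and 143, 0.76), and the means of all 12 added up to 2206 for WT and 800 for *agl62*. The counts, the median and the sums include *AGL62*, the mutated gene. *AGL90*, which did not pass the filter, was listed at 0 in WT and 9.4 in *agl62*. The 8 seed coat markers lay between -0.14 for *TT2* and 0.07 for *TT12*, with sums of 224947 and 222235. All 6 green tissue markers had higher means, from *LHCA1* (3040 and 3660, 0.27) to *RBCS1A* (23500 and 37100, 0.66), with sums of 42360 and 63170. Of 5 embryo markers 4 passed the filter, from *WOX2* (20 and 16, -0.30) to *LEC1* (38 and 325, 3.06), with a median of 0.23. Their sums of 119 and 411 rest on *LEC1*, since the other 4 added up to 81.4 and 86.5, and the intervals of *WOX2*, *WOX8* and *WOX9* span 0. The 4 pollen markers had sums of 1256 and 1231, from *ANX2* (50.3 and 32.3, -0.62) to *ANX1* (651 and 711, 0.13) among the 3 past the filter. The part of these tissues in the ratios of the cell cycle genes was not tested, and in whole seeds fewer cells of a type and less RNA per cell cannot be told apart.

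The ratios of members with and without a promoter match overlapped. The median log2 ratio was -0.09 over the 21 members with an AACGG core, which ranged from -0.41 to 0.16, and -0.16 over the 24 without it, which ranged from -0.45 to 0.21. Over the 19469 genes past the filter that have a promoter window, of 19898 in all, the medians were 0.00 for 5147 genes with the core and 0.01 for 14322 without it. The 3 members with an E2F site lay between -0.17 and -0.08, and the 439 of these genes with such a site had a median of -0.05.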

How the data were processed

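RNA of WT and *agl62* seeds was sequenced by the authors in 3 libraries each, in paired reads of 100 bp. The authors aligned the reads to TAIR10 by TopHat, kept only those that mapped uniquely, and the authors used DESeq for their comparison. The counting tool, the annotation and the versions are not given in the sources used here. The signal columns deposited by the authors hold, for each genotype, the average of size-factor normalized counts. Further columns with the authors' fold change, its log2, p-value and adjusted p-value were not used.

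Log2 ratios were computed for all genes with a pseudocount of 1, and genes with a mean over both genotypes of at least 10 were counted, with 1.5-fold as the size of a difference. Relative depths came from the means under 1, which took 12 distinct values in WT and 19 in *agl62*. Step sizes were added from the lowest mean upwards until every such value was a sum of whole steps, within 0.0005 for each step and 0.0005 for the value. The complete match is thus by construction, and 3 steps were needed per genotype, as many as there are libraries. The procedure was checked on simulated counts with the same depths and with counting error only. That check cannot show how the intervals behave when biological replicates vary. It is not stated if pairs were counted once or by read, and in the latter case the intervals are too narrow. Of the 32678 identifiers 31912 matched the TAIR10.1 annotation, which supplied names, exon lengths, coordinates and sequences, since the table holds no coordinates. All 45 members are named, and for each other list the genes with the highest and lowest log2 ratio past the filter. *SMR5*, *AGL90* and genes that overlap a member were added for their zero or overlap. The members and lists were chosen with earlier results of these data known. Other pseudocounts, filters, sizes of difference and scalings were tried. The work used pandas 2.3.3 and numpy 2.4.6 in Python 3.11.15, with matplotlib 3.10.9 for plots.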

Additional observations from a re-analysis of the deposited data

How the results depend on the processing

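No paired analysis was possible because only genotype means were at hand, without replicate values. Leaving out single replicates and DESeq2 size factors could therefore not be run. No member passed 1.5-fold in either direction without a pseudocount, with a pseudocount of 10, with equal totals, with median centring, without a filter or with a filter of 50, and none passed 2-fold. At 1.25-fold, chosen after seeing the data, 6 members were lower and 0 higher, since the size asked for is smaller. The number with a lower mean was 40 (88.9%, against 47.9% of all genes), and became 32 with equal totals (71.1% against 39.9%) and 41 with median centring (91.1% against 50% by construction). Equal totals brought the medians of the D-type, A-type and B-type cyclins to -0.17, -0.18 and -0.02. Counting 1 strand of the promoter only, 19 members held the AACGG core and 2 an E2F site. Depth limits the D6 and D7 cyclins most.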

Other observations

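Cyclins and CDKs outside the core set were found by their names in the RefSeq table, and those named here were chosen after their values were seen. Of 19 such genes 14 passed the filter, and 7 of these had lower and 7 higher means in *agl62*, with a median log2 ratio of -0.05. *CYCJ18* had means of 84.1 in WT and 135 in *agl62* (log2 ratio 0.68, interval for counting error 0.44 to 0.92) and was the only gene of these 14 past 1.5-fold. At the other end were P-type cyclins, which are related to the yeast cyclin Pho80. *CYCP3;1* had 35.3 and 23.5 (-0.57), and *CYCP3;2* had 690 and 530 (-0.38). The kinases and cyclins that act on transcription lay on both sides of WT. *CDKC;2* had 4610 and 4140 (-0.16) and *CYCT1;4* had 2710 and 2450 (-0.15), while *CDKC;1* had 2430 and 2440 (0.01), *CDKE;1* had 2020 and 2160 (0.10) and *CYCT1;5* had 2590 and 2790 (0.11). *CYCA3;3* was listed at 0 in both genotypes, whereas *CYCA3;2* and *CYCA3;4*, its neighbours by locus number, had WT means of 2840 and 1310.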
